A study of Mus musculus with 26 samples.

Results

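RNA recovered with an antibody against hnRNPK from cytoplasmic liver extracts was set beside total liver RNA of the same kinds of mice. The libraries were chosen by title: 6 cytoplasmic immunoprecipitation (IP) libraries and 12 total RNA libraries, 18 of the 26 in the series. The 2 total RNA libraries that share a replicate number were summed, which left 6 IP units and 6 total RNA units, 2 of each per mouse group. OB mice were B6.V-Lepob/J on normal diet, a strain without leptin that becomes obese. DT mice were C57BL/6J on a high-fat diet. WT mice were C57BL/6J on normal diet. Ages, numbers of animals and pooling are not stated in the labels. Since nothing says that replicates were separate animals, the p-values rest on a spread between samples that may be partly or wholly technical.

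All cytoplasmic extracts had met beads carrying control IgG before the hnRNPK antibody. Total RNA came from whole liver and was not the extract offered to the antibody, so what the extraction changed and what the precipitation changed cannot be told apart in any difference given here. In whole tissue, fewer cells of a type and less RNA per cell cannot be told apart either. One library of RNA bound to IgG in the cytoplasm, from mixed mice, was the only background sample for this compartment. Its molecule label reads as hnRNPK-bound RNA, while its title says IgG, and the title was followed. The deposited tables pair no identifier with a gene symbol, so the labelled tissue was not checked against liver markers here, and the transcript of hnRNPK was not analysed here.

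hnRNPK is an RNA-binding protein of the heterogeneous nuclear ribonucleoprotein family that holds RNA through KH domains and favours stretches rich in cytosine. It moves between nucleus and cytoplasm and is known for roles in splicing, in the stability of messenger RNAs and in their translation. Isoforms of a gene differ in their start, splicing or end, so they can carry different stretches that such a protein may hold. Liver RNA is dominated by a few very abundant messages for secreted proteins and metabolic enzymes.

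Each table listed 59121 transcripts in 31469 numbered gene clusters, of which 12149 held several isoforms and 19320 a single one. A cluster is called here by its number or by its most counted isoform. IP libraries held 8834063 to 12068891 estimated counts and total RNA libraries 25597307 to 41731910, while the IgG library held 338469. Mean fragment lengths implied by the deposited effective lengths were 61.1 to 68.8 nt in cytoplasmic IP, 52.1 to 71.0 nt in total RNA and 87.5 nt in IgG. IP libraries are thus the shallower side of every comparison with total RNA, and isoform shares of clusters with few counts are the least certain.

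Within clusters, the isoforms that held the counts in the IP were often not those that held them in total RNA. Isoform usage asks whether a transcript holds a different part of its cluster, whatever the cluster's own level. Of 17699 transcripts tested in 6499 clusters, 11040 passed an adjusted p of 0.05 (62.4%), with 3875 higher in the IP (21.9%) and 7165 lower (40.5%), by edgeR's test of differential transcript usage with Benjamini-Hochberg adjustment. At the level of the cluster, 5681 of 6499 passed the F test of the same method (87.4%). The direction was the same in all 3 mouse groups for 10683 of the transcripts called. Of those called, 3076 of the higher and 5851 of the lower had shares that did not overlap between the 6 IP and the 6 total RNA units. Transcripts with a higher share in the IP had a median length of 2579 nt and those with a lower share 3175 nt, against 2928 nt over all transcripts tested.

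Many of these differences were whole exchanges of one isoform for another. A share here is a transcript's estimated count divided by its effective length, as a percentage of its cluster. Among transcripts called with no overlap, 2545 were higher and 2231 lower by at least 50 percentage points, in 2786 clusters. By at least 90 points, 647 were higher and 421 lower, in 692 clusters. At 25 points or more the counts were 2907 higher and 3493 lower, so the remaining calls among the 11040 differed by less or overlapped.

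The clusters with the widest exchange are given with their values by unit. In cluster 28269, which has 2 isoforms, uc009obn.1 of 2737 nt had a share of 100% in each of the 6 IP units and 0% in each of the 6 total RNA units. The other isoform, uc009obm.1 of 2799 nt, had 0% in each IP unit and 100% in each total RNA unit. The IP side rests on 912 counts over 6 units, where a count of 0 allows a share of up to 0.329%, and the total RNA side on 14602 counts, which allows up to 0.0205%. The adjusted p was 4.2e-07 for uc009obn.1 and 3.2e-05 for uc009obm.1, by the same edgeR test. The 6 nuclear IP units, also precipitated with the hnRNPK antibody, gave uc009obn.1 shares of 79.9% to 100%.

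Cluster 18837 showed the same kind of exchange with 3 isoforms. Its isoform uc008std.1, of 3510 nt, held 100% in every IP unit and at most 0.0011% in any total RNA unit. The isoform that filled total RNA, uc008stc.1 of 3547 nt, held 0% in every IP unit and 91.9% to 98.2% in total RNA, with a median of 95.7%. The third isoform, uc008stb.1, held 0% in the IP and 1.85% to 8.12% in total RNA. The IP side rests on 1086 counts, so that a count of 0 allows up to 0.276%. The adjusted p was 8.1e-13 for uc008std.1 and 8.2e-11 for uc008stc.1.

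In cluster 9909, uc007xlv.2, of 2880 nt, held 0% in each IP unit and 99.1% to 100% in total RNA. Its partner uc011zyq.1, of 2816 nt, held 100% in each IP unit and at most 0.852% in total RNA. All 3 clusters were chosen among those whose IP and total RNA units did not overlap, so their separation was set by the choice. Isoforms of a cluster share most of their sequence, and the authors' estimates divide reads that match several, so a share of 0 or 100% is an estimate and the exchange of near-identical isoforms is uncertain. Read lengths and alignment settings of the IP and total RNA tables are not given in the sources used here. Whether they were the same for both, and their part in these exchanges, was not tested.

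**Figure D1:**
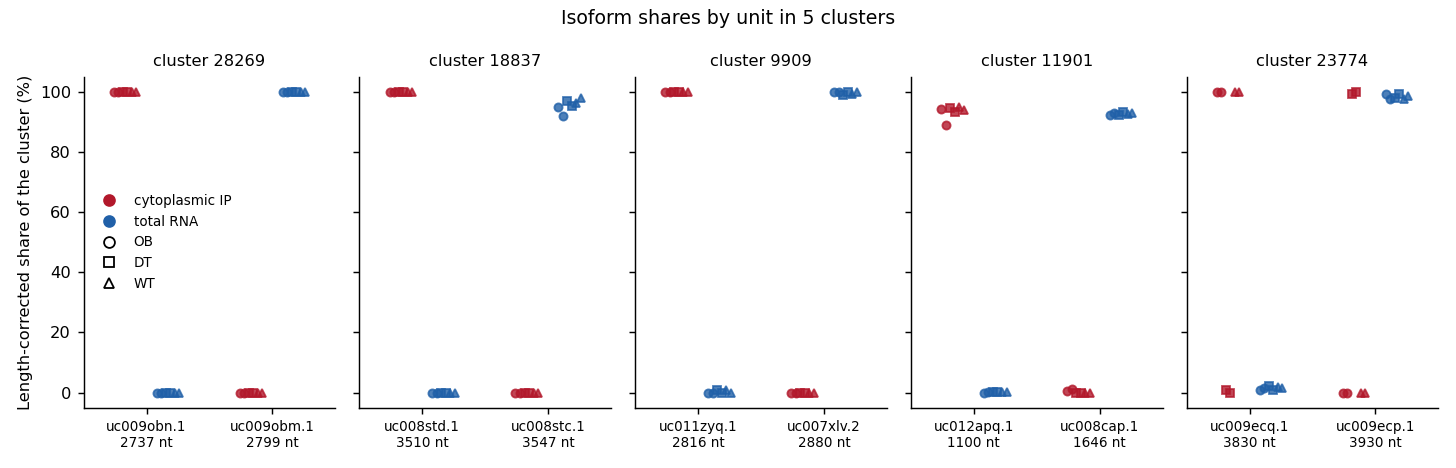
Length-corrected share of 2 isoforms (y axis, percent of the cluster) in each of 6 cytoplasmic IP units (red, left) and 6 total RNA units (blue, right) for 5 clusters, with circles for OB, squares for DT and triangles for WT. In clusters 28269, 18837 and 9909 one isoform holds 100% in all IP units and at most 0.852% in total RNA, and in cluster 23774 the DT units of the IP stand with total RNA.

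The other libraries on beads stood with the cytoplasmic IP in most of these exchanges. Of 4776 transcripts that differed by at least 50 points, 4651 had a nuclear IP share nearer to the cytoplasmic IP than to total RNA. The IgG library could be read for 841 of them in clusters with at least 20 IgG counts, and in 696 its share was also nearer to the IP than to total RNA (82.8%). For differences of at least 25 points the count was 946 of 1171 (80.8%). In a comparison of cytoplasmic with nuclear IP chosen after the values were seen, 1298 of the 17699 transcripts passed (7.33%). In clusters 28269, 18837 and 9909 the IgG library gave the IP's isoform 100%, but from 11, 8 and 6 counts. Where IgG could be read, its shares were thus mostly on the side of the IP. The part of the shared extraction and bead steps in these differences was not tested.

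The isoforms present in the IP were on balance the shorter ones of their clusters. Each cluster was given a mean isoform length in each unit, weighted by the length-corrected shares, for 5170 clusters with at least 20 counts in each of the 12 units. Of these, 4157 passed limma's test with Benjamini-Hochberg adjustment at 0.05 (80.4%), with 3351 shorter in the IP (64.8%) and 806 longer (15.6%). The 6 IP units lay below all 6 total RNA units in 3026 clusters and above them in 646. Most shifts were small: the median over all clusters was -0.03 on the log2 scale, and the median cluster length was 2689 nt in the IP and 2970 nt in total RNA. Of the clusters called, 1325 were shorter in the IP by more than 10% (25.6% of all tested), and 278 were longer by the same factor (5.38%).

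The shift was of like size in every IP unit. Between 24.5% and 26.6% of clusters were more than 10% shorter in each cytoplasmic IP unit than in the total RNA of its mouse group, and 5.07% to 5.71% were more than 10% longer. In single total RNA units set against the other replicate of their mouse group, 0.232% to 1.55% were shorter by that much, and the same range applied to longer. Nuclear IP units had 26.2% to 27.4% shorter. In the IgG library 19.2% of the 1189 clusters with at least 20 counts were shorter by more than 10% and 5.89% longer. The imbalance had the same direction in the IgG library as in the IP.

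**Figure D2:**
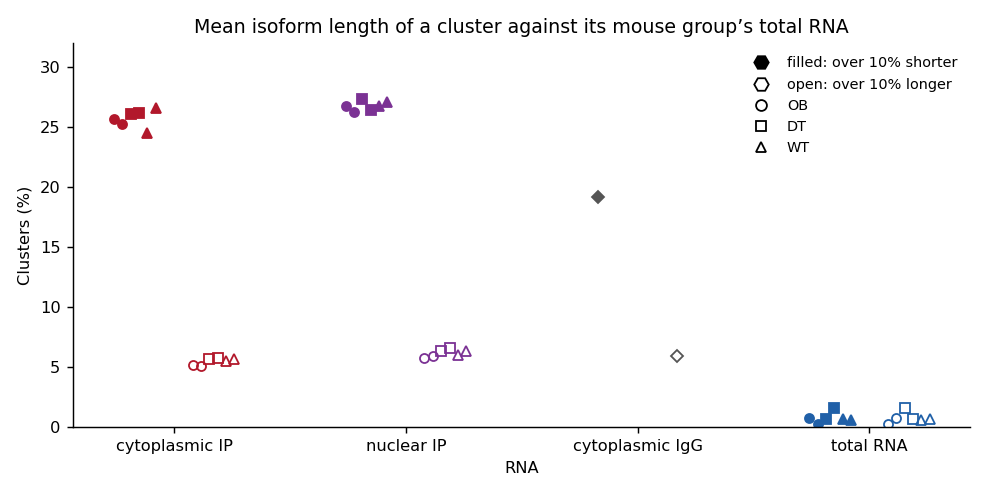
Percentage of clusters (y axis) whose mean isoform length was more than 10% shorter (filled) or longer (open) than in their mouse group's total RNA (for a total RNA unit, its other replicate), 1 point per unit, for cytoplasmic IP, nuclear IP, cytoplasmic IgG and total RNA (IgG, 1 library, diamond, against all total RNA). Cytoplasmic IP units sit between 24.5% and 26.6% for shorter, the IgG library at 19.2%, and total RNA units at 1.55% or less. The sets differ: cytoplasmic IP and total RNA cover 5170 clusters. IgG covers 1189 with at least 20 IgG counts, mostly those with 200 or more counts in each IP unit.

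Among clusters whose units did not overlap, the largest shortening was in cluster uc009alt.1 (cluster 22083, 3 isoforms), whose mean isoform length was 908 to 1021 nt in the 6 IP units with a median of 957 nt, and 6503 to 10581 nt in total RNA with a median of 7947 nt. The log2 difference was -3.07 with a standard error of 0.10 and a limma adjusted p of 1.0e-07. Its short isoform uc029vqi.1, of 782 nt, held 98.2% of the cluster in the IP and 36.0% in total RNA, while uc009alt.1 itself, of 12476 nt, held 1.45% in the IP and 63.2% in total RNA. The main isoform was thus a short one in the IP and a long one in total RNA. The other shortened cluster, uc029ryi.1 (cluster 6354, 6 isoforms), had 853 to 2142 nt in the IP and 8281 to 16799 nt in total RNA, a log2 difference of -2.85 with a standard error of 0.16. Its main isoform was the same on both sides, the 473 nt uc007pgs.1, with 58.9% in the IP and 45.0% in total RNA. The size of both shifts depended on the weights: with isoforms weighted by counts, not by counts per effective length, the log2 difference was -1.94 for uc009alt.1 and -0.34 for uc029ryi.1.

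Lengthening also occurred. Cluster uc007uou.1 (cluster 8639, 6 isoforms) had a mean isoform length of 13318 to 14058 nt in the IP and 3702 to 4180 nt in total RNA, a log2 difference of 1.79 with a standard error of 0.03. Its isoform uc011zoe.1, of 13207 nt, held 80.6% in the IP and 0.0138% in total RNA. Cluster uc008jnd.2 (cluster 14895, 4 isoforms) had 15613 to 16400 nt in the IP and 5355 to 5712 nt in total RNA, a log2 difference of 1.55 with a standard error of 0.02. Its isoform uc008jnc.2, of 16348 nt, held 79.5% of the cluster in the IP and 0% in total RNA. Weighted by counts the log2 differences were smaller, at 0.45 for uc007uou.1 and 0.51 for uc008jnd.2. These 4 clusters were taken from those whose IP and total RNA units did not overlap, so their separation was set by the choice. The IgG library gave 1208, 4346, 13207 and 16348 nt for the 4 clusters in the order named, on 21, 12, 16 and 12 counts. Each was nearer in nt to the IP than to total RNA, but on the log2 scale uc029ryi.1 was nearer to total RNA.

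The main isoform, the one with the highest mean share, differed between IP and total RNA in 2942 of the 5170 clusters (56.9%). It was shorter in the IP in 2776 of them, longer in 163 and of equal length in 3. A stricter count sets the main isoform of the IP against that of total RNA in each of the 12 units. The IP's had to hold the higher share in every IP unit and the lower in every total RNA unit. Neither had to be the main isoform of any unit, since another isoform could hold more. This count was met by 2021 clusters (39.1%), 1917 with the shorter isoform in the IP and 104 with the longer. Among these 2021, the IP's isoform was shorter by 1000 nt or more in 567 clusters (28.1%), by 200 nt or more but under 1000 nt in 685 (33.9%) and by less than 200 nt in 665 (32.9%). It was longer by 1000 nt or more in 59. The IgG library had at least 20 counts for 451 of the 2021 and lay on the IP's side in 369 (81.8%, 95% Wilson interval 78.0% to 85.1%, which covers counting of clusters only). The nuclear IP had the same main isoform as the cytoplasmic IP in 1935 of the 2021 (95.7%).

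The main isoform was more often the same in IP and total RNA among clusters with many counts, a comparison given without a test. Grouped by the lowest count of a cluster in any IP unit, the share with another main isoform was 64.3% of 1105 clusters at 20 to under 50 counts, 59.1% of 2252 at 50 to under 200, 51.2% of 1471 at 200 to under 1000 and 43.3% of 342 at 1000 or more. The stricter count over all 12 units changed less, with 35.7%, 39.8%, 40.8% and 38.0% in the same order. The share of clusters more than 10% shorter was 28.6% in the lowest class and 17.8% in the highest. One isoform also held more of its cluster in the IP: the highest share had a median of 91.2% in the IP and 79.3% in total RNA over all 5170 clusters, and of 96.0% in the IP and 94.4% in total RNA in the class with 1000 counts or more. Depth moves with these classes, and its part was not tested.

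Shorter isoforms prevailed in clusters that were higher in the IP as well as in those that were lower. Among 2166 clusters called higher in the IP, 68.0% were shorter and 14.5% longer by the limma test. Among 1967 called lower, 61.1% were shorter and 17.4% longer. Among 1037 not called, 65.4% were shorter and 14.5% longer. These shares were not tested against each other.

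Isoform usage relative to total RNA differed between mouse groups for few transcripts. The difference between OB and WT passed for 26 of 17699 transcripts (0.147%), 10 higher (0.0565%) and 16 lower (0.0904%) in OB, and that between DT and WT for 30 (0.17%), 18 higher (0.102%) and 12 lower (0.0678%) in DT, by the edgeR test with Benjamini-Hochberg adjustment at 0.05. At an unadjusted p under 0.05 the counts were 1622 and 1465. Both contrasts use the same WT units. The counts moved widely when 1 unit was left out. For OB they were 4 to 14 without any of the 6 total RNA units, and 69, 66, 63, 76 and 80 without OB replicate 1, DT replicates 1 and 2 and WT replicates 1 and 2 of the IP. For DT they were 1 to 17 without any of the 6 total RNA units, and 59 without DT replicate 1 and 83 without WT replicate 2 of the IP. With the replicate number as a block in the edgeR fit, 8 transcripts passed for OB and 0 for DT, and uc011xlg.1, named below, was among those lost. These calls depend on which units are fitted and on the block.

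In OB mice, uc008cap.1 (cluster 11901, 1646 nt) held 0.672% and 1.16% of its cluster in the IP and 92.3% and 92.9% in total RNA. In WT mice it held 0% in both IP units and 92.7% and 93.0% in total RNA, and the difference had an adjusted p of 6.3e-05. The isoform that replaced it in the IP, uc012apq.1 of 1100 nt, held 89.1% to 94.8% in the 6 IP units and at most 0.105% in total RNA. The exchange was thus near complete in all mouse groups, and the difference between mouse groups concerned a remainder of 0.672% and 1.16%. In cluster 1969, uc007ffk.2 held 19.5% and 16.5% in OB IP units and 84.9% and 73.0% in OB total RNA, against 0% in both WT IP units and 83.2% and 79.4% in WT total RNA (adjusted p 0.0044).

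In the other direction, uc011xlg.1 (cluster 2752) held 0% in both OB IP units and 1.37% and 3.45% in OB total RNA, against 100% in both WT IP units and 0% in WT total RNA (adjusted p 0.00053). This cluster had only 11 to 42 counts per IP unit. In cluster 29738, uc009rfg.3 held 56.1% and 69.7% in OB IP units and 25.9% and 12.1% in OB total RNA, against 68.4% and 81.8% in WT IP units and 0% in both WT total RNA units (adjusted p 0.00097). Here the mouse groups differed more in total RNA than in the IP. Without replicate 2 of WT total RNA, the calls for uc007ffk.2 and uc009rfg.3 were lost (edgeR adjusted p 0.054 and 0.068). For DT against WT, uc009rfg.3 was also called (edgeR adjusted p 0.028). It held 60.4% and 76.2% in DT IP units and 1.28% and 6.14% in DT total RNA.

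For DT mice, uc009ecp.1 (cluster 23774, 3930 nt) held 99.3% and 100% in the IP and 97.9% and 99.2% in total RNA. In WT mice it held 0% in both IP units and 97.6% and 98.6% in total RNA (adjusted p 0.00063). OB units of the IP also had 0%, so in this cluster the DT IP units stood with total RNA and the other IP units apart. The call for uc009ecp.1 was lost with no filter on low counts (edgeR adjusted p 0.24) and without replicate 1 or 2 of DT total RNA (0.068 and 0.052). In cluster 1288, uc007dlr.2 held 100% in both DT IP units and 0% in DT total RNA, against 0% in both WT IP units and 2.71% and 3.67% in WT total RNA (adjusted p 0.011), on 14 to 54 counts per IP unit. That call was lost without replicate 1 or 2 of DT total RNA or replicate 2 of WT total RNA (edgeR adjusted p 0.11, 0.095 and 0.080). Both clusters showed whole exchanges between mouse groups within the IP.

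The other DT transcripts named here rested on small remainders. In cluster 18062, uc012cvz.1 held 100% in both DT IP units and 0.800% and 1.37% in DT total RNA, against 99.4% and 99.7% in WT IP units and 0% in WT total RNA (adjusted p 0.0011). In cluster 29756, uc009rgq.1 held 0% in both DT IP units and 61.2% and 57.9% in DT total RNA, against 2.04% and 3.43% in WT IP units and 55.4% and 60.1% in WT total RNA (adjusted p 0.023). The call for uc009rgq.1 was lost without any one of the DT IP, DT total RNA and WT total RNA units, with edgeR adjusted p of 0.079 to 0.14. Both transcripts were also called for OB against WT, with edgeR adjusted p of 0.0016 for uc012cvz.1 and 0.0050 for uc009rgq.1. In OB, uc012cvz.1 held 99.5% and 98.7% in the IP and 0.909% and 0.496% in total RNA. For uc009rgq.1 the OB shares were 0% in both IP units and 58.7% and 51.4% in total RNA. These calls were thus not particular to DT. In these clusters IP and total RNA differed far more than the mouse groups did.

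Summed over isoforms, most clusters also differed in level between IP and total RNA. Of 13516 clusters tested, 10430 passed (77.2%), 4860 higher in the IP (36%) and 5570 lower (41.2%), by edgeR's quasi-likelihood test with TMM scaling and Benjamini-Hochberg adjustment. With 77.2% called, a call alone sets no cluster apart. The sign was the same in the 3 mouse groups for 10198 of those called (97.8%), and in 8575 the IP and total RNA units were apart within each mouse group. The median cluster was at -0.11 on the log2 scale. Scaling by library size alone moved this median to -0.62 and the split to 2920 higher and 7321 lower, so every direction given for clusters is relative to the TMM scale.

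The cluster uc012ath.2 (cluster 12133, a single isoform of 5818 nt) was the most counted RNA of the IP. It took 12.2% to 28.8% of all counts in the IP units with a median of 14.8%, and 0.926% to 2.78% in total RNA with a median of 1.39%. The highest IP units were DT replicate 2 with 28.8% and WT replicate 1 with 24.3%, and no IP unit was below 12.2%. On the TMM scale the log2 fold was 4.07 with a standard error of 0.36, and 2.86 in OB, 5.04 in DT and 4.31 in WT mice (adjusted p 8.1e-08). The IgG library had 17.4% of its counts there and nuclear IP units 18.6% to 41.2%, so a high share of this RNA was also measured on beads without the hnRNPK antibody.

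Among clusters with a mean log2 CPM (counts scaled by library size and TMM factors) of 10 or more, uc029sug.1 (cluster 9805, 532 nt) had the highest fold. It had 26812 to 99965 CPM in the IP with a median of 33515, and 1284 to 3541 CPM in total RNA with a median of 2055. Its log2 fold was 4.29 with a standard error of 0.31 (adjusted p 9.4e-09), and the IgG library had 22568 CPM. DT replicate 2 alone gave the value of 99965, while the other IP units lay between 26812 and 38572.

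The lowest folds in this class belonged to clusters whose most counted isoform was long. Cluster uc007mzf.2 (cluster 5301, 13909 nt) had 330 to 589 CPM in the IP with a median of 416, and 4906 to 7350 CPM in total RNA with a median of 5870. Its log2 fold was -3.74 with a standard error of 0.13 (adjusted p 5.6e-12). Cluster uc008deg.1 (cluster 12368, 5133 nt) had 255 to 548 CPM in the IP with a median of 380, and 2719 to 4427 CPM in total RNA with a median of 3429. Its log2 fold was -3.14 with a standard error of 0.16 (adjusted p 2.0e-10). The IgG library had 866 and 665 CPM for the 2 clusters, nearer to the IP than to total RNA.

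Counts were concentrated in fewer clusters in the IP. The number of clusters that together hold 50% of the counts was 21 to 120 in the IP units with a median of 69.5, and 142 to 208 in total RNA with a median of 173. The IP units were 120 and 74 in OB, 106 and 21 in DT, and 48 and 65 in WT mice, all below the lowest total RNA unit. The difference averaged over mouse groups was -99.2 clusters, with a two-sided p of 0.00926 in an exact permutation test within mouse groups, the smallest that its arrangements allow. Without uc012ath.2 the numbers overlapped, at 116 to 201 in the IP and 156 to 215 in total RNA, a description with no test, since the cluster was left out for its level in the IP. With counts divided by effective length they were 36 to 104 in the IP and 86 to 104 in total RNA (exact permutation p 0.0463). The IgG library had 89.

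Fewer clusters were also detected in the IP at equal depth. At 8834063 counts, the depth of the shallowest IP unit, 14470 to 15094 clusters were expected with a count in the IP units and 15345 to 16163 in total RNA units. The ranges did not overlap, and the mean difference of -953 clusters had an exact permutation p of 0.00926 (two-sided). The part of uc012ath.2, which takes up counts of this depth in the IP, was not tested. At full depth the numbers were 14538 to 15323 in the IP and 17544 to 18332 in total RNA.

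With clusters ranked by their level in total RNA, no rank class held a share of counts that differed between IP and total RNA past the test. The ranks come from the same total RNA units as the shares, which favours total RNA in the first class. The 10 highest clusters of total RNA held 16.6% to 33.0% of the counts in the IP with a mean of 24.0% ± 6.44 (SD, n = 6), and 16.0% to 22.2% in total RNA with a mean of 19.2% ± 2.33. The exact permutation p was 0.148, and 0.296 after Benjamini-Hochberg adjustment over 4 rank classes. Ranks above 10 up to 100 held 24.0% ± 1.40 in the IP and 24.3% ± 0.916 in total RNA, ranks above 100 up to 1000 held 25.3% ± 3.07 in the IP and 28.1% ± 0.865 in total RNA, and clusters ranked below those held 26.8% ± 3.41 in the IP and 28.3% ± 1.10 in total RNA. None of these 4 differences passed the exact permutation test after adjustment, with adjusted p of 0.565, 0.259 and 0.556 for the lower classes. Without OB replicate 1 of the IP, the 10 highest differed by 5.60 points and ranks above 100 up to 1000 by -3.41, both with an adjusted exact permutation p of 0.0185.

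With counts divided by effective length and no cluster left out, the 10 highest held 10.9% ± 3.07 in the IP and 21.4% ± 1.45 in total RNA. The difference was -10.5 points. These ranks come from the same total RNA units as the shares, which by construction raises total RNA's share of the first class, so no p is given. Without uc012ath.2 the values are given as a description with no test, because that cluster was left out for its high level in the IP, which by construction lowers the IP's share of the first class and raises the others. The 10 highest of the remaining clusters held 7.41% ± 3.04 in the IP and 18.6% ± 1.86 in total RNA, and ranks above 10 up to 100 held 29.3% ± 3.12 in the IP and 24.1% ± 0.860 in total RNA. Ranks above 100 up to 1000 were higher in the IP by 2.25 points and clusters ranked below those by 3.73 points. In the IgG library the 10 highest held 11.4% without uc012ath.2, between the IP mean and the total RNA mean. The cluster most counted in total RNA had 0.254% to 1.08% of counts in the IP and 4.42% to 6.30% in total RNA.

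**Figure D3:**
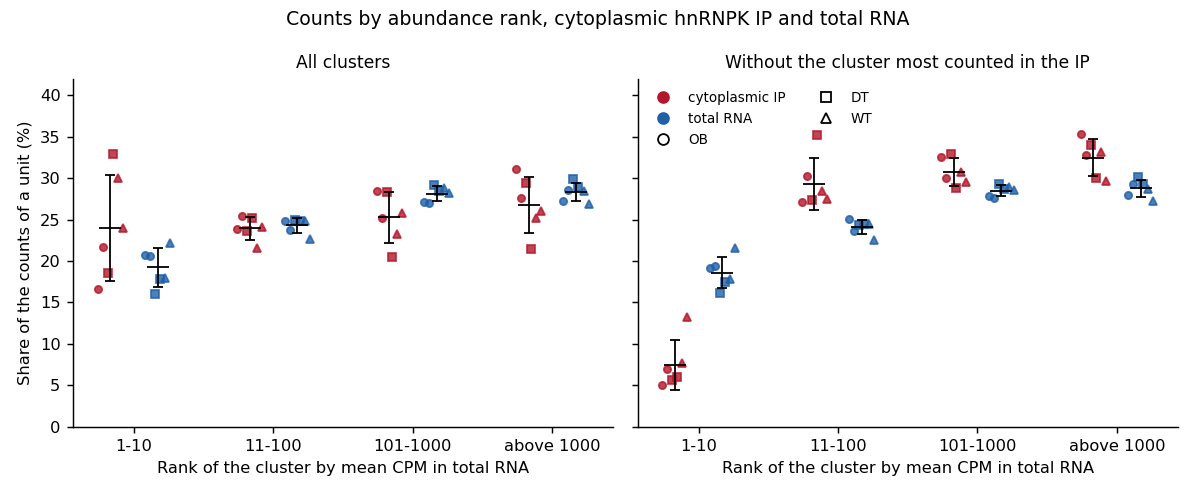
Share of a unit's counts (y axis, percent) held by clusters of 4 rank classes by mean CPM in total RNA, for 6 cytoplasmic IP units (red, left) and 6 total RNA units (blue, right), with bars for the mean and SD; symbols mark OB, DT and WT. With all clusters the 10 highest held 16.6% to 33.0% in the IP, and without uc012ath.2 5.00% to 13.3%, below every total RNA unit.

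The lists of most counted clusters overlapped in part. Of the 10 highest by mean in the IP, 5 were among the 10 highest of total RNA (50% of each list). Of the 100 highest 57 were shared, and of the 1000 highest 626 (62.6%). Of the 100 highest of total RNA, 36 were called higher and 50 lower in the IP by the edgeR test, with a median log2 fold of -0.48. Over all clusters tested, 36% were called higher and 41.2% lower. These lists are set by the level in total RNA, against which the fold is taken, so lower folds are favoured by construction. Of the 1000 highest, 399 were called higher and 464 lower, with a median of -0.13, near the -0.11 of all clusters.

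The relation of fold to abundance depended on how abundance was classed. With classes from the mean log2 CPM over IP and total RNA together, the class median of the IP units had a mean of -0.55 ± 0.13 (SD over 6 IP units) below 2, -0.21 ± 0.04 at 2 to 4, 0.14 ± 0.06 at 4 to 6, 0.41 ± 0.10 at 6 to 8, 0.73 ± 0.11 at 8 to 10 and 0.71 ± 0.05 at 10 or more. The share called higher went along with this, at 21.6% of 4047 clusters in the lowest class and 64.4% of 309 at 8 to 10. Such classes use the IP's own values, so a high IP value lifts both the class and the fold.

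Classes from total RNA replicate 1 and folds over total RNA replicate 2 share no measurement. A cluster high in total RNA still falls in a high class and tends to a low fold. This classing thus favours lower medians at high levels, as the first favours higher ones. With it, the medians did not increase with abundance. They averaged -0.08 ± 0.16 below 2, -0.08 ± 0.03 at 2 to 4, -0.12 ± 0.06 at 4 to 6 and -0.08 ± 0.10 at 6 to 8. Lower medians were seen in the 2 highest classes, at -0.44 ± 0.06 at 8 to 10 and -0.77 ± 0.39 at 10 or more, with all 6 IP units below 0 in both. With library size scaling the 2 highest classes of the first classing averaged 0.21 and 0.19 and all others were below 0, while in the second classing all 6 were below 0, at -0.94 for 8 to 10 and -1.27 for 10 or more.

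**Figure D4:**
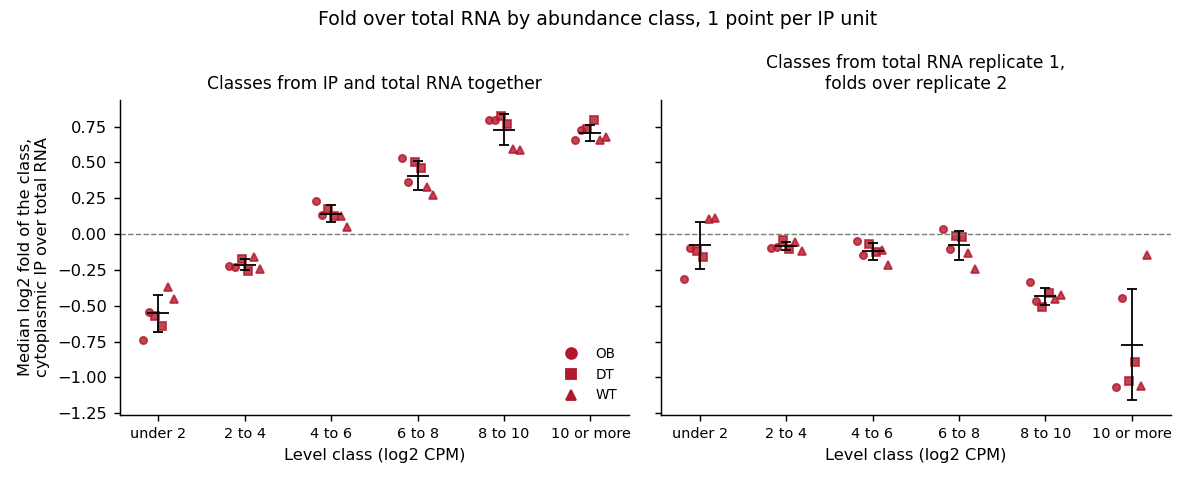
Median log2 fold of cytoplasmic IP over total RNA (y axis) in 6 classes of level, 1 point per IP unit, with bars for mean and SD. With classes from IP and total RNA together the mean is 0.73 at 8 to 10 log2 CPM (left), and with classes from total RNA replicate 1 and folds over replicate 2 it is -0.77 at 10 or more (right).

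Short RNAs were higher and long RNAs lower in the IP. Of 1156 clusters under 1000 nt, 862 were called higher in the IP (74.6%) and 10.8% lower, with a unit median averaging 1.25 ± 0.24 (SD over 6 IP units). Of 6430 clusters of 1000 to under 3000 nt, 2763 were higher and 2140 lower, with 0.17 ± 0.07. Of 5930 clusters of 3000 nt or more, 1235 were higher and 3305 lower, with -0.54 ± 0.11. With library size scaling the medians were 0.74, -0.34 and -1.05, so the middle class changed its sign and the order did not. The IgG library had medians of 0.20, -0.33 and -0.37 over total RNA for the 3 length classes, the same order as in the IP. These medians come from 1 library of 338469 counts and include clusters with few IgG counts, so their range is not compared with the IP's.

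This order held within 5 of the 6 abundance classes formed from IP and total RNA together. Below a log2 CPM of 2 the averages were 1.34 ± 0.12 for clusters under 1000 nt, -0.29 ± 0.08 for 1000 to under 3000 nt and -1.12 ± 0.24 for 3000 nt or more. At 8 to 10 they were 1.60 ± 0.32, 0.67 ± 0.15 and 0.12 ± 0.08. At 10 or more, on 19, 51 and 12 clusters, they were 0.68 ± 0.32, 0.80 ± 0.11 and 0.44 ± 0.28. By these averages the 2 shorter classes stood in the other order, and their difference was not tested. With classes from total RNA replicate 1, chosen after the values were seen, all 6 classes had the same order. At 10 or more the averages there were 0.31 ± 0.27 on 14 clusters, -1.39 ± 0.23 on 53 and -2.44 ± 0.21 on 17. The cluster uc012ath.2, of 5818 nt and with a log2 fold of 4.07, is among the clusters of 3000 nt or more and went the other way.

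**Figure D5:**
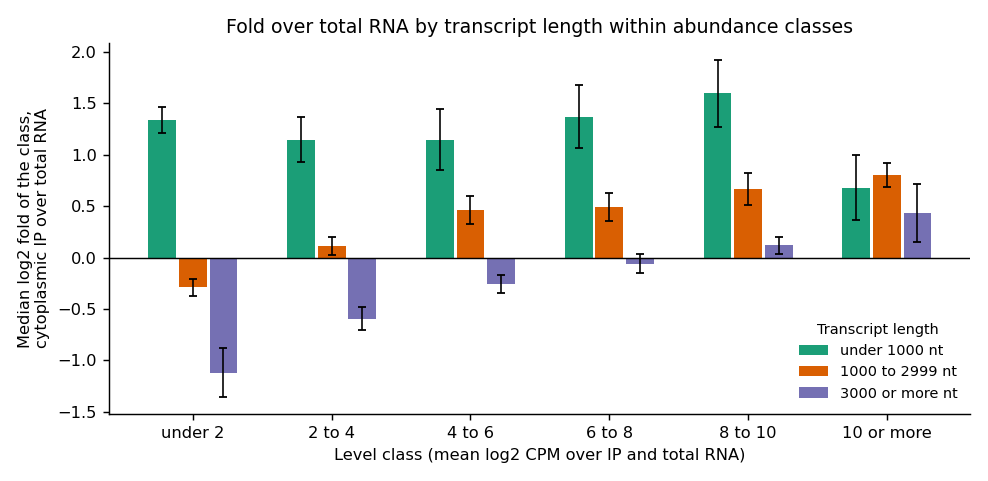
Mean over 6 cytoplasmic IP units of the class median log2 fold over total RNA (y axis, bars with SD) for 3 length classes within 6 classes of mean level over IP and total RNA. Clusters under 1000 nt lie at 0.68 to 1.60 and clusters of 3000 nt or more at -1.12 to 0.44.

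Clusters with many annotated isoforms were lower in the IP on balance. The share called higher was 42.4% of 4646 clusters with 1 isoform, 36.6% of 3606 with 2, 30.8% of 3585 with 3 or 4, 27.7% of 1573 with 5 to 9 and 28.3% of 106 with 10 or more. The unit medians averaged 0.14 ± 0.05, -0.09 ± 0.04, -0.23 ± 0.05, -0.35 ± 0.08 and -0.43 ± 0.13 in that order. With library size scaling they kept this order and were all below 0, at -0.37 for 1 isoform and -0.94 for 10 or more. Length moved with isoform number, with a median of 2121 nt for clusters with 1 isoform and 4362 nt for those with 10 or more, and its part was not tested. In the IgG library the medians over total RNA were -0.31, -0.38, -0.29, -0.21 and -0.29 in the same order. They rest on 1 library of 338469 counts and include clusters with few IgG counts. For the 4047 clusters below a mean log2 CPM of 2 the IgG median was -1.55. Whether IgG shared the decline of the IP was not tested.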

How the data were processed

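Liver RNA of OB, DT and WT mice was measured in 26 libraries, of which 6 cytoplasmic IP and 12 total RNA libraries are compared, 6 nuclear IP libraries add to the estimate of spread, and 1 cytoplasmic IgG library is described. Per the labels' protocols, libraries were made with a TruSeq RNA kit. Strandedness and the roles of the tools were not given in the sources used here. The deposited values are expected counts (estimated counts) per transcript, made by the authors with RSEM 1.2.8. TopHat2 2.0.10, Bowtie2 2.1.0, bcl2fastq, SAMtools and the build mm10 are also named, without role or order, per the submitters' processing notes. Deposited lengths and effective lengths were used as given, and the deposited TPM, FPKM and isoform percentages were not used. RSEM divides reads among similar transcripts, so overlapping clusters, antisense pairs and near-identical isoforms are uncertain.

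Expected counts were rounded after summing per cluster and, for total RNA, over the 2 libraries of a replicate number. The labels do not say that these are runs of one RNA. In R 4.3.3, cluster levels were tested by edgeR 4.0.16 with its quasi-likelihood fit (TMM, filterByExpr, a mean per group, all 18 units), isoform usage with diffSpliceDGE of edgeR, and log2 mean isoform length with limma 3.58.1 on 12 units. Contrasts average the 3 mouse groups, with a threshold of 0.05 on the Benjamini-Hochberg adjusted p. DESeq2 1.42.0 was an alternative. Standard errors of edgeR results are the absolute log2 fold divided by the square root of F, and those of mean isoform length are limma's own. Levels are CPM with TMM scaling, and log2 levels carry a prior count of 1. Count shares were tested by exact two-sided permutation within mouse groups. A count of 0 is read as up to 3 counts. This floor and the 95% intervals cover counting error only. IP libraries held 8834063 to 12068891 counts, which limits shares in rare clusters.

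Named items are the 2 highest and 2 lowest of each comparison among abundant clusters or transcripts that passed and did not overlap, ranked by fold, by change in share or by change in length; between mouse groups, those called were ranked by p. Members and lists were chosen with earlier results of these data known. Gene lists and cell type markers were planned and not analysed here, since no table used here links the identifiers to symbols. Alternatives were library size or DESeq2 size factors, no filter, a replicate block, single units left out, total RNA libraries kept apart and other tests. The comparison of cytoplasmic with nuclear IP, and length classes within classes from total RNA replicate 1, were added after the data were seen.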

Additional observations from a re-analysis of the deposited data

Results flagged for a closer look

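In 34 groups of 6 units examined, 3 held a unit that stood apart from the other 5 by Dixon's criterion, where chance gives about 1 in 20. Cluster uc029sug.1 had 99965 CPM in DT replicate 2 of the cytoplasmic IP, while the other IP units had at most 38572 CPM. Isoform uc008std.1 had a share of 0.00108% in OB replicate 1 of total RNA and 0% in the other total RNA units, a value that rests on 0.02 of an estimated count. Cluster uc029ryi.1 had a mean isoform length of 16799 nt in OB replicate 1 of total RNA, and at most 11454 nt in the other total RNA units.

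Isoform usage over total RNA differed between OB and WT mice for 26 transcripts and between DT and WT mice for 30, by the edgeR test of the difference itself with Benjamini-Hochberg adjustment. For OB against WT the adjusted p was 6.3e-05 for uc008cap.1, 0.0044 for uc007ffk.2, 0.00053 for uc011xlg.1 and 0.00097 for uc009rfg.3. For DT against WT it was 0.00063 for uc009ecp.1, 0.011 for uc007dlr.2, 0.0011 for uc012cvz.1 and 0.023 for uc009rgq.1. Shares of these transcripts in the units are given with the comparison of mouse groups.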

How the results depend on the processing

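The cluster calls (10430) lay between 9973 and 11312 and the isoform usage calls (11040) between 8649 and 14534 over the alternatives run on them, and no named cluster or transcript of IP against total RNA changed its direction. With library size scaling 2920 clusters were higher, against 4860 with TMM. limma's test on voom values called 6565 transcripts higher, against 3875. Clusters with at least 100 counts per unit gave 2433 calls in mean isoform length, 1913 shorter and 520 longer, because fewer clusters are tested. When 1 unit was left out, the ranges were 9973 to 10291 for clusters (4531 to 5011 higher, 5053 to 5565 lower), 10153 to 10982 for transcripts (3463 to 3756 higher, 6683 to 7226 lower), 4019 to 4238 for length (3239 to 3437 shorter, 771 to 811 longer) and -113 to -85.0 for the clusters holding 50% of the counts.

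Differences between mouse groups were the least stable, and the cause was not tested. Leaving out 1 unit gave 4 to 80 transcripts for OB and 1 to 83 for DT. With no filter DT had 14, and with each total RNA library as its own replicate OB had 490 and DT 390. The replicate number as a block gave 8 for OB and 0 for DT (612 and 517 at an unadjusted p under 0.05 in the same edgeR fit), against 26 and 30, and 10877 clusters, 10076 transcripts and 3989 lengths for IP against total RNA. Of the 8 transcripts named between mouse groups, uc011xlg.1 and the 4 of DT against WT did not pass in that fit. Deviations of IP and total RNA units with the same number correlated at 0.32 in OB, 0.10 in DT and 0.37 in WT mice. The main fits used no block, and whether the numbers pair the samples was not tested.

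For rank classes, ranks from the mean of IP and total RNA gave 12.9 points for ranks 1 to 10, -3.10 for 11 to 100 and -7.11 above 1000, but this ranking uses the IP's own values, which raises its first class by construction. Without the cluster most counted in the IP, left out for that level, the 4 classes reversed to -11.2, 5.22, 2.25 and 3.73 points. Counts per effective length reversed the first 3 to -10.5, 6.68 and 4.01 points, with ranks from total RNA, which lowers the first by construction. When 1 unit was left out, the differences were 2.35 to 7.16 points for ranks 1 to 10, -0.964 to 0.0610 for 11 to 100, reversed at 0.0610 without WT replicate 1 of the IP, -4.18 to -1.56 for ranks above 100 up to 1000 and -2.86 to -0.186 above 1000. The difference in clusters holding 50% of the counts was -24.2 without the most counted cluster, given with no test since that cluster was left out for its level in the IP. The IgG library, at 338469 counts, leaves most clusters without a readable isoform share.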
